A study of Canis lupus familiaris with 8 samples.

Results

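Immediate-early genes are switched on by a signal reaching the cell, using transcription factors that are already present. The 10 gene symbols examined here were NR4A1, NR4A2, NR4A3, FOS, FOSB, JUNB, EGR1, ATF3, DUSP2 and GADD45G. They were found by their symbols in the deposited tables, where 9 of the 10 matched a single row among 24580 genes, and NR4A3 is not analysed here. RNA sequencing of messenger RNA covered 8 libraries from adult dogs, with 1 library for each combination of breed (Beagle or Chinese Field Dog), organ (adrenal cortex or pituitary) and exposure. The stressed libraries carry a chronic stress label, and the others are labelled as non-disposal, which was read as unexposed. The labels leave unsaid if each library stands for 1 dog or several, how the stress was applied, or how much time passed between the last exposure and tissue collection. The extraction note speaks of spleen, whereas all titles and tissue labels name adrenal cortex or pituitary, which were used.

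In the textbook picture, growth factors and calcium act on these genes through MAP kinases and the serum response factor, and hormones that raise cyclic AMP act through protein kinase A and CREB. In pituitary corticotrophs, corticotropin-releasing hormone uses the cyclic AMP route and NR4A factors bind the POMC promoter. In adrenal cortex cells, ACTH uses the same route through its receptor MC2R, and NR4A1 is among the factors that drive genes of steroid synthesis. The messages are short-lived, so their level reflects recent signalling more than a long-standing state.

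Between 14327357 and 18712035 reads were recovered per library. Adrenal cortex markers summed to between 17410 and 21990 FPKM (a level corrected for gene length and for library depth) in the adrenal libraries and to at most 76.5 FPKM in the pituitary libraries. Anterior pituitary markers summed to between 82380 and 165900 FPKM in the pituitary libraries and to at most 54.1 FPKM in the adrenal libraries. The lowest of these pituitary sums was that of the unexposed Beagle, where GH1 is listed at 0. The other 11 markers summed to 82380 FPKM in that library, 92070 FPKM in the stressed Beagle, 78900 FPKM in the unexposed and 42000 FPKM in the stressed Chinese Field Dog pituitary. Markers of the adrenal medulla were also present in the adrenal libraries, where all 9 were above 0 and their sum was 3217 to 5851 FPKM. The stressed Chinese Field Dog pituitary stood apart: 12 forebrain neuron markers, all above 0, summed to 1872 FPKM there and to between 137 and 142 FPKM in the other pituitary libraries, and 7 glial markers to 555 FPKM against 34.5 to 113 FPKM. The unexposed Beagle pituitary held airway transcripts, a set chosen after the values were seen: SCGB1A1 was at 55.0 FPKM there and between 1.32 and 5.47 FPKM in the other pituitary libraries, and BPIFA1 at 10.9 FPKM against at most 0.257 FPKM. BPIFB1 (3.54 FPKM) and MUC5AC (1.12 FPKM) were also highest there. FOXJ1, of the same set, was not, at 2.32 FPKM against 2.50 FPKM in the stressed Beagle. It was at 2.18 FPKM in the unexposed and 0.509 FPKM in the stressed Chinese Field Dog pituitary. These are whole organs or organ layers, so fewer cells of a type and less RNA per cell cannot be told apart.

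The NR4A genes encode orphan nuclear receptors whose activity follows their abundance. NR4A1 (chromosome 27, 2947618 to 2955829 in CanFam3.1, as the files give the span of the gene) was at 296 FPKM in the unexposed and 119 FPKM in the stressed Beagle adrenal cortex, and at 118 FPKM in the unexposed and 84.9 FPKM in the stressed Chinese Field Dog adrenal cortex. In the pituitary it was at 108 FPKM in the unexposed and 32.2 FPKM in the stressed Beagle, and at 16.8 FPKM in the unexposed and 33.5 FPKM in the stressed Chinese Field Dog. The unexposed Beagle library was therefore the highest of 4 in both organs, and the ranges of the organs overlapped only through that pituitary library. NR4A2 (chromosome 36, 2546243 to 2554509) had the same order of libraries within each organ, at lower levels. Its adrenal values were 34.7 FPKM and 18.5 FPKM in the unexposed and stressed Beagle, and 12.5 FPKM and 6.49 FPKM in the unexposed and stressed Chinese Field Dog. Its pituitary values in that order were 18.8 FPKM and 5.57 FPKM for the Beagle, and 3.08 FPKM and 6.41 FPKM for the Chinese Field Dog. The highest library exceeded the lowest 5.34-fold in the adrenal cortex and 6.10-fold in the pituitary.

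FOS, FOSB and JUNB are subunits of the AP-1 transcription factor. FOS (chromosome 8, 48330835 to 48334338), which pairs with a JUN protein to bind DNA, was at 198 FPKM and 295 FPKM in the unexposed and stressed Beagle adrenal cortex and at 227 FPKM and 195 FPKM in the unexposed and stressed Chinese Field Dog adrenal cortex. In the pituitary it was at 49.9 FPKM and 71.8 FPKM in the Beagle, and for the Chinese Field Dog at 62.2 FPKM and 88.9 FPKM, again unexposed first. FOS was the steadiest of the members within an organ, with the highest library 1.51-fold above the lowest in the adrenal cortex and 1.78-fold in the pituitary, and the only member that was lowest in the unexposed Beagle pituitary.

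FOSB (chromosome 1, 110086352 to 110092818), a relative of FOS with a long-lived truncated form, was at 17.3 FPKM and 15.6 FPKM in the unexposed and stressed Beagle adrenal cortex and at 11.6 FPKM and 6.37 FPKM in the Chinese Field Dog. Its pituitary level was 1.23 FPKM in the unexposed Chinese Field Dog and between 2.99 FPKM and 3.31 FPKM in the other 3 libraries. Every pituitary library was thus below every adrenal library. JUNB (chromosome 20, 49359386 to 49360442), an AP-1 subunit that often restrains JUN, was the most abundant member on average in both organs. It was at 379 FPKM and 281 FPKM in the unexposed and stressed Beagle adrenal cortex and at 212 FPKM and 209 FPKM in the Chinese Field Dog. Its pituitary levels were 127 FPKM and 82.4 FPKM for the Beagle, and 63.3 FPKM and 74.2 FPKM for the Chinese Field Dog.

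EGR1 (chromosome 11, 26045601 to 26050479) encodes a zinc-finger factor that responds to MAP kinase signalling. It was at 149 FPKM and 208 FPKM in the unexposed and stressed Beagle adrenal cortex and at 147 FPKM and 93.0 FPKM in the Chinese Field Dog, so that the breeds were alike without stress and lay 2.22-fold apart with it. In the pituitary it was at 83.9 FPKM in the unexposed Beagle and between 37.5 FPKM and 41.6 FPKM in the other 3 libraries. ATF3 (chromosome 7, 10782153 to 10796616), a stress-induced member of the ATF and CREB family, was at 12.4 FPKM in the unexposed Beagle adrenal cortex and between 4.95 FPKM and 5.54 FPKM in the other adrenal libraries. Its pituitary levels were 3.84 FPKM and 1.56 FPKM in the unexposed and stressed Beagle and 1.34 FPKM and 2.38 FPKM in the Chinese Field Dog. ATF3 values are less certain than the others, since the authors' length correction for this gene differed 1.58-fold between libraries, against at most 1.08-fold for the other members.

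The last pair are effectors rather than DNA-binding factors, and both had their highest value in 1 library. DUSP2 (chromosome 17, 34586715 to 34589136), a nuclear phosphatase that inactivates MAP kinases, was at 22.4 FPKM (560 reads) in the unexposed Beagle pituitary. The other pituitary libraries held 1.32 FPKM in the stressed Beagle, 1.63 FPKM in the unexposed Chinese Field Dog and 3.82 FPKM in the stressed Chinese Field Dog, from 34, 42 and 90 reads. The adrenal libraries held 1.10 FPKM to 2.70 FPKM. GADD45G (chromosome 1, 96744757 to 96746752), a small protein of growth arrest and p38 signalling, was at 44.3 FPKM (1073 reads) in the unexposed Beagle pituitary and between 6.09 FPKM and 6.71 FPKM in the other 3. Its adrenal levels were 10.1 FPKM in the unexposed Beagle, 6.50 FPKM in the unexposed Chinese Field Dog and 8.31 FPKM in the stressed Chinese Field Dog, with the stressed Beagle highest of these 4 by 1.76-fold over the lowest. Without the unexposed Beagle library, the pituitary values of GADD45G lay within a narrow band, whereas those of DUSP2 still spread.

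**Figure D1:**
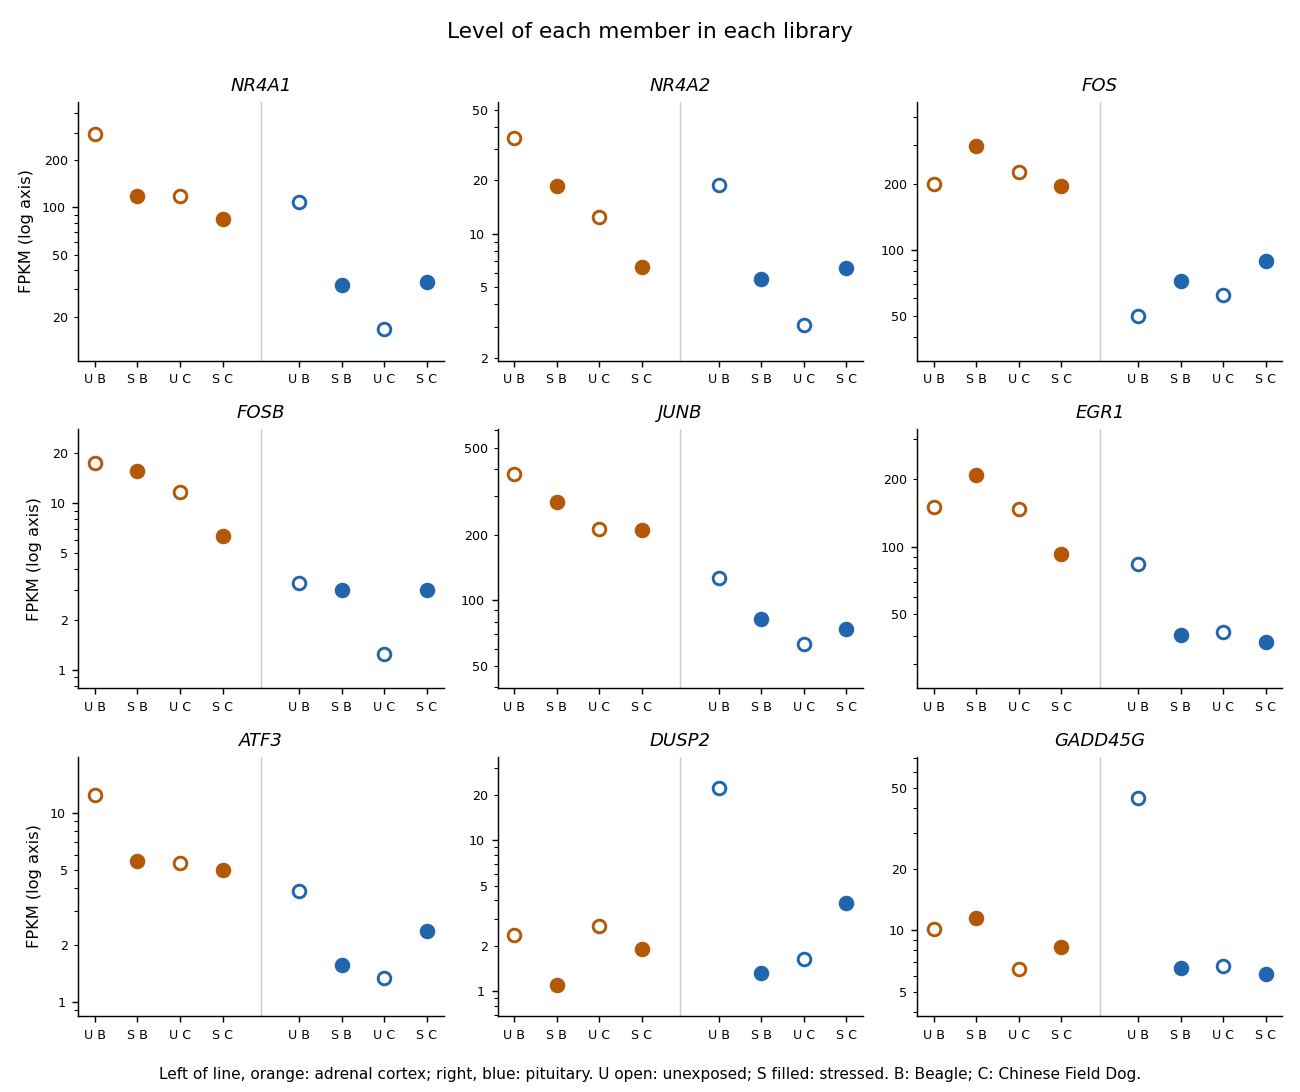
FPKM on a log axis in each of the 8 libraries, 1 panel per gene and 1 point per library, so there are no error bars. In 8 of the 9 panels the highest pituitary point is that of the unexposed Beagle, FOS being the exception.

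The first comparison set the pituitary against the adrenal cortex. Of the 9 genes, 6 were lower in the pituitary by limma (adjusted p under 0.05 over 14808 genes), and 0 were called higher. Over all genes tested, 28.1% were called lower in the pituitary and 27.5% higher, 55.6% in all. FOSB was 3.68-fold lower (log2 -1.88, SE 0.22, adjusted p = 0.0045), NR4A1 3.58-fold lower (log2 -1.84, SE 0.50, adjusted p = 0.0397) and FOS 3.35-fold lower (log2 -1.74, SE 0.16, adjusted p = 0.0028), all on the log2(FPKM + 1) scale. JUNB, EGR1 and ATF3 were also lower, with log2 differences of -1.63, -1.56 and -1.27 and limma adjusted p of 0.0044, 0.0118 and 0.0308. With breeds and exposures standing in for replicates, such p-values reflect the spread among these libraries alone, which may be technical. A stress difference unlike between the breeds within an organ also counts as spread in this fit. The same holds for the stress and breed tests below.

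Of the 6, the 5 other than NR4A1 had each pituitary library below each adrenal library, a pattern seen in 29.5% of all genes tested. Matched for breed and exposure, 7 of the 9 were lower in the pituitary in all 4 pairs, against 35.7% of all genes. The seventh was NR4A2, whose fitted log2 difference of -1.04 (SE 0.44) did not pass (limma adjusted p = 0.114). In the stressed Chinese Field Dog pair it was nearly level between the organs (log2 -0.02). DUSP2 (log2 0.80, SE 0.75, limma adjusted p = 0.408) and GADD45G (log2 0.24, SE 0.44, limma adjusted p = 0.672) did not pass either. Without the unexposed Beagle pituitary, their fitted differences turned to -0.25 and -0.38. Leaving out the stressed Chinese Field Dog pituitary instead gave the same values. Both fits take the pituitary level from the stressed Beagle and unexposed Chinese Field Dog libraries alone. The unexposed Beagle pituitary thus has no weight in either. Without the stressed Beagle or the unexposed Chinese Field Dog pituitary, the level came from the unexposed Beagle and stressed Chinese Field Dog. The differences were then 1.85 for DUSP2 and 0.85 for GADD45G. Without any 1 of the adrenal libraries, limma called 3 of the 9, namely FOS, FOSB and either EGR1 or JUNB. Calls over all 14808 genes also fell, from 8231 to 3760 or 4173. NR4A1 and ATF3 lost their calls in each of these fits, which take their spread from the pituitary alone, and the reason was not tested. The call of EGR1 was also lost without both stressed pituitary libraries (limma adjusted p = 0.0776).

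**Figure D2:**
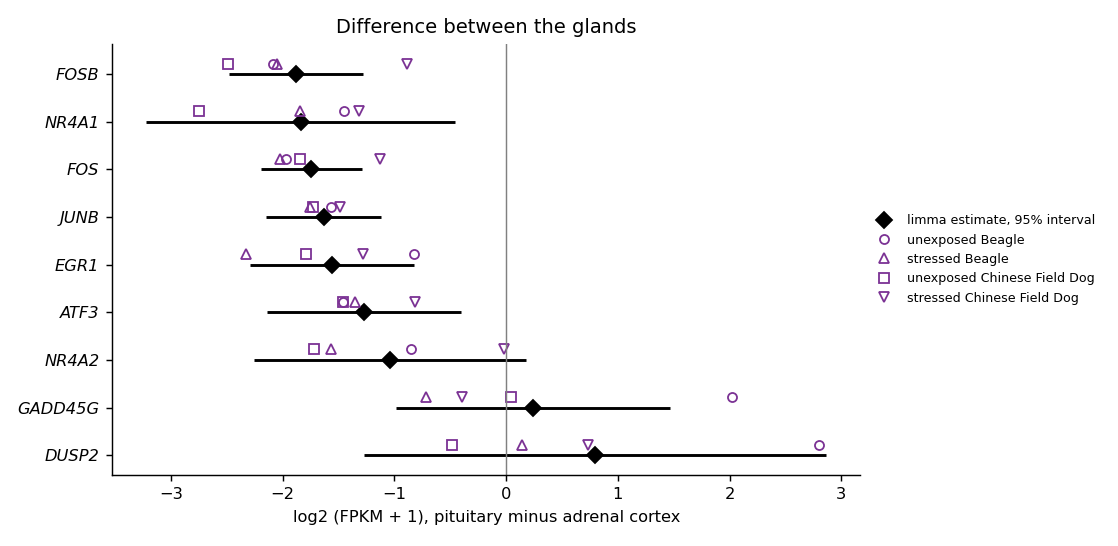
Difference between pituitary and adrenal cortex in log2(FPKM + 1) for each gene, with the limma estimate and its 95% interval in black and the 4 pairs matched for breed and exposure as open symbols. The intervals of 6 genes lie below 0, and those of NR4A2, GADD45G and DUSP2 span it, with the unexposed Beagle pair far to the right for the last 2.

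Related genes were taken from lists, which no test compared with the members or with all genes. All counts of calls here stand beside the 28.1% of all genes called lower in the pituitary and the 27.5% called higher. Among 17 measured genes of a list of other immediate-early transcription factors, limma called 10 lower in the pituitary and 0 higher, with a median log2 difference of -0.94. The largest were FOSL2 (log2 -2.73, SE 0.24, adjusted p = 0.0024), a further FOS relative, MYC (log2 -2.02), the Krüppel-like factor KLF4 (log2 -1.90) and IER2 (log2 -1.60). Of 26 measured genes of other signal-induced effectors, limma called 14 lower and 3 higher, with a median of -0.63. They were led by the secreted matrix proteins CYR61 (log2 -4.32) and THBS1 (log2 -3.27), the antiproliferative gene BTG2 (log2 -2.57) and the MAP kinase phosphatase DUSP1 (log2 -2.50). Of 28 measured kinases, coactivators and DNA-binding factors that act upstream, limma called 8 higher in the pituitary and 3 lower, with a median of 0.20. The ribosomal S6 kinase gene RPS6KA1 stood furthest, higher in the pituitary by log2 3.09 (SE 0.19, limma adjusted p = 0.0012).

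The second comparison set stressed against unexposed libraries. By limma, 0 of the 9 genes passed in the adrenal cortex and 0 of the 9 in the pituitary with the breeds as replicates, where 0.00675% of all genes passed in each organ. The number of the 9 with an unadjusted limma p under 0.05 was 0 in both organs. Of all 14808 genes, 441 had one in the adrenal cortex and 662 in the pituitary. edgeR and DESeq2 also called 0 of the 9. Over all genes edgeR called 0 in both organs, while DESeq2 called 11 in the adrenal cortex and 64 in the pituitary. Unadjusted DESeq2 p-values in the pituitary were under 0.05 for 2 of the 9 and for 625 of all genes. The member nearest to the threshold in the pituitary was FOS, at a log2 difference of 0.51 (95% interval -0.12 to 1.15, limma adjusted p = 0.881), higher in both breeds. In the adrenal cortex NR4A2 was lower in both breeds, by log2 -0.87 (Beagle) and -0.85 (Chinese Field Dog), with a wide interval on the fitted value (-2.58 to 0.86, limma adjusted p = 1). Nor did any member pass in the test of whether the stress difference was unlike between organs (limma, 0 of 9, against 0.0135% of all genes). No member was higher in all 4 stress pairs, and none was lower in all 4, against 5.77% and 6.76% of all genes.

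Taken pair by pair, with 1 library on each side and no test, the Beagle pituitary differed most. Of the 9 genes, 8 were lower in its stressed library, with a median log2 ratio of FPKM + 1 of -1.03 against 0.00 over all genes. At least 2-fold lower were 5 of them, against 1.09% of all genes: DUSP2 (log2 -3.34), GADD45G (-2.58), NR4A1 (-1.72), NR4A2 (-1.59) and EGR1 (-1.03). ATF3 had 79 reads against 208, a log2 ratio of -1.45 in scaled reads with a counting interval of -1.84 to -1.07, and -0.92 in FPKM + 1. FOS went the other way, at log2 0.52. Airway transcripts other than FOXJ1 were high in the same unexposed library, and their part in these ratios was not tested.

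The Chinese Field Dog pituitary had the opposite arrangement. Of the 9 genes, 7 were higher in its stressed library, with a median log2 ratio of 0.53 against -0.03 over all genes, led by NR4A1 (0.96), DUSP2 (0.87), NR4A2 (0.86) and FOSB (0.84). None reached 2-fold in FPKM + 1, where 7.85% of all genes were at least 2-fold higher. In scaled reads FOSB, ATF3, DUSP2 and NR4A2 did, with 153, 121, 90 and 274 reads against 69, 47, 42 and 142. The share of all genes past 2-fold in scaled reads is not given here, so this count has no background beside it. The stressed library is the one with forebrain neuron and glial markers, whose sums were 1872 and 555 FPKM against 137 and 113 FPKM in its unexposed partner. Lymphocyte markers, of which NKG7 was at 0, summed to 212 FPKM against 50.9 FPKM. The part of these cell types in the ratios was not tested.

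In the adrenal cortex the members' ratios lay between -1.31 and 0.57. In the Beagle, 6 of the 9 were lower in the stressed library (median log2 -0.43), and 2 were at least 2-fold lower, against 2.45% of all genes: NR4A1 (-1.31, from 4692 reads against 10526) and ATF3 (-1.03). FOS (0.57) and EGR1 (0.47) were higher, with counting intervals above 0 on scaled reads. In the Chinese Field Dog, 8 of the 9 were lower (median log2 -0.35) and none reached 2-fold, where 1.03% of all genes were at least 2-fold lower. NR4A2 (-0.85), FOSB (-0.77) and EGR1 (-0.65) led that side, and GADD45G (0.31) was the only gene higher.

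**Figure D3:**
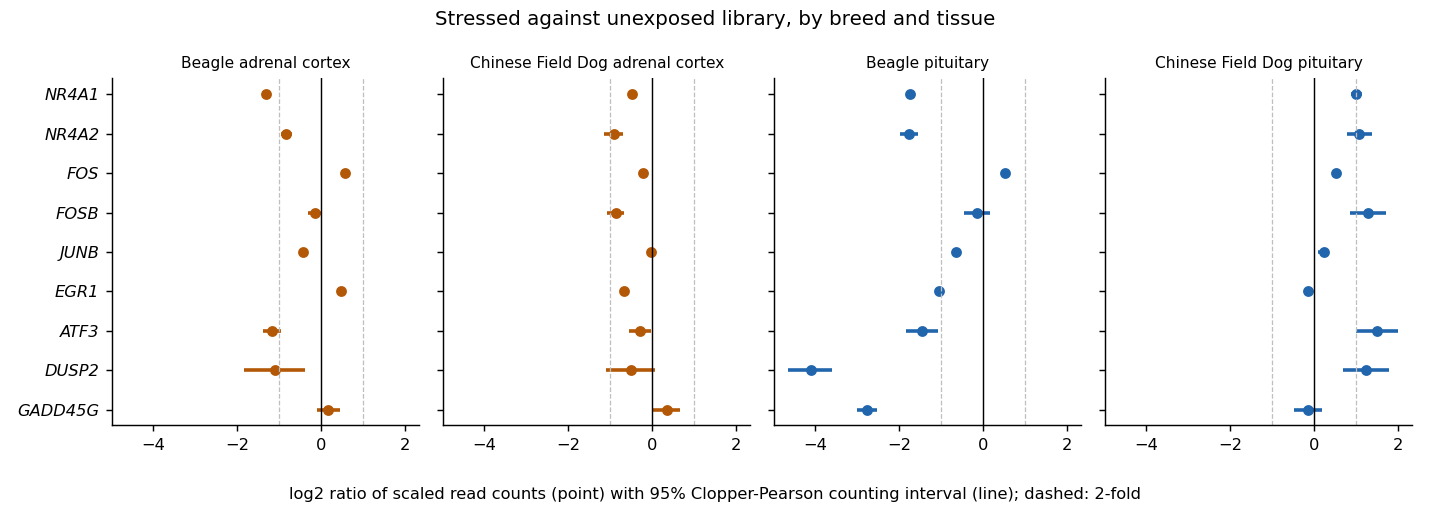
Log2 ratio of scaled read counts, stressed against unexposed, for each gene in the 4 pairs of libraries, with 95% Clopper-Pearson intervals that cover counting error only and not differences between dogs. Most points lie left of 0 in the Beagle pituitary, down to -4.09 for DUSP2, and right of 0 in the Chinese Field Dog pituitary.

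Whether the stress difference depended on breed was tested with both organs together. No member passed (limma, 0 of 9 called, where 0% of all genes were called). Unadjusted limma p-values were under 0.05 for 2 of the 9, NR4A1 and ATF3, and for 533 of 14808 genes. NR4A1 had a mean stress difference of log2 0.24 for the Chinese Field Dog and -1.51 for the Beagle, a gap of 1.76 (SE 0.56, 95% interval 0.03 to 3.48, limma adjusted p = 0.867). For ATF3 the gap was 1.18 (SE 0.25, 95% interval 0.40 to 1.96, limma adjusted p = 0.867). The gap was largest for DUSP2, at 2.27 with an interval of -1.19 to 5.73. DESeq2 called 1 of the 9, NR4A1 (log2 1.79, adjusted p = 0.0249), where it called 41 of 14808 genes, or 0.277%. Unadjusted DESeq2 p-values were under 0.05 for 5 of the 9 and for 482 of all genes. edgeR called 0 of the 9 and 0 of all genes, of which 1053 (4 of the 9 among them) had an unadjusted p under 0.05, with an adjusted p of 0.586 for NR4A1.

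The third comparison set the Chinese Field Dog against the Beagle. By limma, with the exposures as replicates, 0 of the 9 passed in the adrenal cortex (0.0338% of all genes did) and 0 of the 9 in the pituitary (0.0203% of all genes did). Of the 9 genes, 4 were lower in the Chinese Field Dog in all 4 pairs of libraries, namely FOSB, JUNB, EGR1 and GADD45G, against 11.5% of all genes. None was higher in all 4, against 8.34%. In the adrenal cortex 3 of the 9 were at least 2-fold lower without stress (NR4A1, NR4A2 and ATF3, against 2.7% of all genes) and 3 with it (NR4A2, FOSB and EGR1, against 1.33%). NR4A2 had log2 ratios of -1.41 without stress and -1.38 with it (fitted -1.39, 95% interval -3.11 to 0.33, limma adjusted p = 0.782), and FOSB had -0.54 and -1.17 (fitted -0.85, 95% interval -1.70 to -0.01, limma adjusted p = 0.768). Adrenal medulla markers moved with these ratios: 9 of 9 were lower in the Chinese Field Dog in both exposures, with median log2 ratios of -0.89 without stress and -0.61 with it, and limma called 0 of the 9. Their sum was 5851 FPKM in the unexposed Beagle and 3498 FPKM in the unexposed Chinese Field Dog, and 4746 FPKM and 3217 FPKM in the stressed libraries, and their part in the ratios was not tested.

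In the pituitary the breeds lay apart without stress and close together with it. Among the unexposed libraries 8 of the 9 genes were lower in the Chinese Field Dog, with a median log2 ratio of -1.05. At least 2-fold lower were 5 of them, against 1.44% of all genes: DUSP2 (-3.15), NR4A1 (-2.62), GADD45G (-2.56), NR4A2 (-2.28) and ATF3 (-1.05). EGR1 and JUNB stood just inside that line, both 1.99-fold lower. Among the stressed libraries the median was 0.06, and the counting intervals on reads of NR4A1, FOSB and GADD45G included 0. DUSP2, at log2 1.06, was the only member at least 2-fold higher there, where 8.73% of all genes were. The unexposed Beagle pituitary enters both the stress pair of the Beagle and the unexposed breed pair, so those ratios share it. By library, it held the highest of the 4 pituitary values for 8 of the 9 genes, against 27.2% of all genes tested, and the unexposed Beagle adrenal cortex held the highest of its 4 for 5 of the 9, against 29.9%. The stressed Chinese Field Dog adrenal cortex was the lowest of its 4 for 7 of the 9, against 31.1%.

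**Figure D4:**
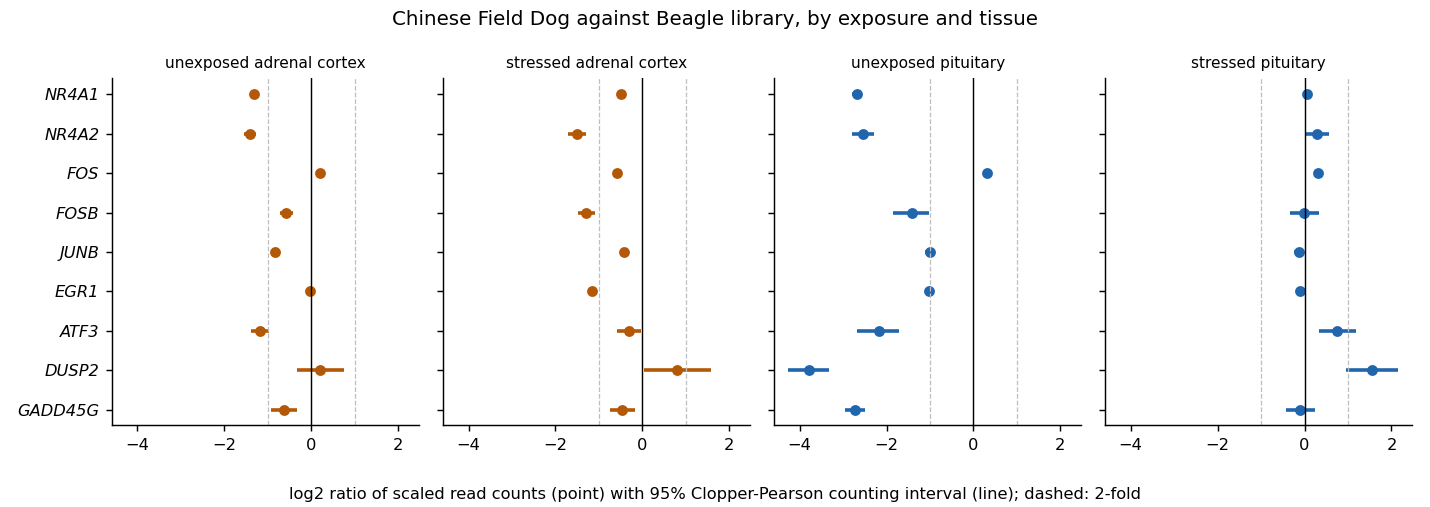
Log2 ratio of scaled read counts, Chinese Field Dog against Beagle, for each gene in the 4 pairs of libraries, with 95% Clopper-Pearson intervals for counting error only. In the unexposed pituitary 7 genes lie past 2-fold and JUNB on the dashed line, while in the stressed pituitary DUSP2 alone lies past it. The share of all genes past 2-fold on this scale is not given here.

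Stress ratios of the wider set of signal-induced genes are given pair by pair, with no test. In the Beagle pituitary, 10 of 17 other immediate-early transcription factors were lower in the stressed library, with a median log2 ratio of -0.14, and only FOSL2 (24.6 against 10.7 FPKM, log2 -1.13) was past 2-fold. Of 26 other effectors 19 were lower, with a median of -0.17, and 4 were past 2-fold: ERRFI1, an inhibitor of the EGF receptor (37.6 against 9.73 FPKM, log2 -1.85), the cyclic AMP-induced kinase SIK1 (30.6 against 8.34 FPKM, log2 -1.76), the pseudokinase TRIB1 (12.9 against 4.37 FPKM, log2 -1.37) and the GADD45G relative GADD45B (24.1 against 10.7 FPKM, log2 -1.09). The 27 upstream kinases and factors measured in that pair had a median of -0.17, and none was past 2-fold. Genes known to be induced by glucocorticoids were lower as well, 10 of 10, with a median of -0.65, although ERRFI1 and DUSP1 also belong to the list of effectors. Of all genes in that pair, 50.5% were lower. The glucocorticoid list was also lower for 10 of 10 between the unexposed pituitaries of the breeds, a pair that shares the unexposed Beagle library. In the stress pair of the Chinese Field Dog pituitary, 5 of its 10 genes were lower and 5 higher.

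In the Beagle adrenal cortex the other immediate-early transcription factors were divided, with 9 higher and 8 lower and a median log2 ratio of 0.10. The 3 past 2-fold were all lower: CREM, whose ICER product is induced by cyclic AMP (53.1 against 10.3 FPKM, log2 -2.26), the bZIP factor NFIL3 (29.4 against 8.41 FPKM, log2 -1.69) and JUND (101 against 48.7 FPKM, log2 -1.04). Among the effectors, SIK1 alone was past 2-fold (43.9 against 7.85 FPKM, log2 -2.34). The ACTH receptor MC2R was at 88.9 FPKM in the unexposed and 97.4 FPKM in the stressed library, while its accessory protein MRAP was at 407 FPKM and 133 FPKM. Adrenal medulla markers summed to 5851 FPKM in the unexposed and 4746 FPKM in the stressed Beagle library, and fat cell markers to 85.0 FPKM and 22.5 FPKM. Their part in these ratios was not tested. In the Chinese Field Dog adrenal cortex the largest ratios in these lists were EGR3 (log2 -0.81) and SIK1 (log2 -0.70), with 0 genes past 2-fold.

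In the Chinese Field Dog pituitary, EGR3, a transcription factor abundant in active neurons, was the 1 of 17 other factors past 2-fold, at 4.90 FPKM in the stressed against 0.114 FPKM in the unexposed library (log2 2.40). Of the 26 effectors 2 were past 2-fold, in opposite directions. HOMER1, a scaffold of synapses, was at 30.0 FPKM in the stressed against 11.7 FPKM in the unexposed library (log2 1.29), and DUSP6, a phosphatase of MAP kinases, at 23.4 FPKM against 48.6 FPKM (log2 -1.02). EGR3 stood at 0.234 FPKM and 0.340 FPKM in the unexposed and stressed Beagle pituitary. The medians of the lists were 0.11 for the transcription factors and -0.10 for the effectors, compared with 0.53 for the members. SIK1 was at 12.1 against 10.4 FPKM in this pair.

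**Figure D5:**
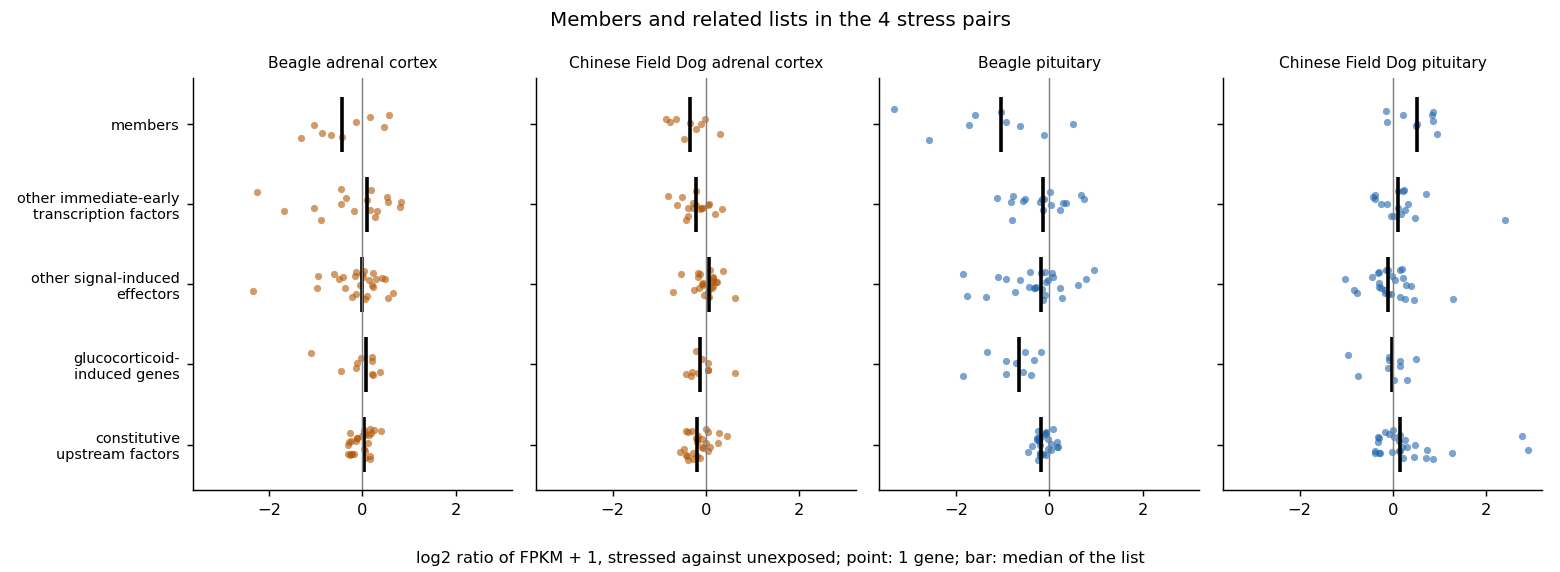
Log2 ratio of FPKM + 1, stressed against unexposed, for the members and 4 related lists in each pair of libraries, with 1 point per gene measured at a mean of at least 1 FPKM in the pair and a black bar at the median. The members have the lowest median in the Beagle pituitary (-1.03) and the highest in the Chinese Field Dog pituitary (0.53) of the lists drawn.

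The genes whose pattern was most like that of the members were sought among 11296 genes expressed in both organs. Each library was given the mean of the 9 members' log2(FPKM + 1) after the mean of its organ was taken out, which ran from 0.98 in the unexposed Beagle pituitary to -0.60 in the unexposed Chinese Field Dog pituitary. The 8 genes with the highest Pearson r over the 8 libraries were USP2 (r = 0.997), TM9SF4 (0.982), CX36 (0.976), FOSL2 (0.973), MAMLD1 (0.969), NISCH (0.960), KCNN3 (0.958) and PRDM4 (0.957). They were picked as the highest of many, so these values are a description. USP2, a deubiquitinating enzyme, was at 21.9 FPKM in the unexposed Beagle pituitary and at 11.3, 9.92 and 12.3 FPKM in the stressed Beagle, unexposed Chinese Field Dog and stressed Chinese Field Dog pituitary. FOSL2 was at 133 FPKM in the unexposed Beagle adrenal cortex and at 96.0, 85.2 and 72.8 FPKM in the other adrenal libraries in the same order.

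In the authors' deposited table of comparisons, 7 of 72 p-values for the members were at most 0.05, against 0.876% of those given for the 14808 genes tested here, and all 7 involved the unexposed Beagle pituitary. Between the stressed and unexposed Beagle pituitary they were 3 of 9, against 0.231% in the authors' deposited table. Between the unexposed pituitaries of the breeds they were 4 of 9, against 0.383% in the authors' deposited table, and the pairs share a library. The lowest was for NR4A1 between the unexposed pituitaries of the breeds (p = 0.00345 in the authors' deposited table), and its false discovery rate, the lowest of the 72, was 0.280.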

How the data were processed

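Values came from 8 deposited tables of 24580 Ensembl genes, each holding a pair of libraries; where tables shared a library, its columns had equal values (16 of 16 column pairs). Per the submitters' processing notes, the aligner was TopHat, whose version is not given, and the genome build CanFam3.1. The counting program and annotation are not given in the sources used here. The authors' FPKM values are corrected for gene length and depth. The authors' scaled counts, a signal per gene, are whole multiples of 0.899 to 1.17 units per read, so reads were recovered by division, and 99.5% to 99.6% of values below 200 came out whole within 0.02. Recovered reads are approximate in both libraries whose step is close to 1, those of stressed Beagle adrenal cortex and stressed Chinese Field Dog pituitary. The authors' p-value and FDR columns were only quoted. There were 0 value columns that matched no sample. All 8 libraries were used, each as the only replicate of its group.

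With 1 library per combination, limma 3.58.1 in R 4.3.3 was fitted to log2(FPKM + 1) of all 8 libraries for the 14808 genes whose mean FPKM reached 1, with a mean, a breed term and an exposure term in each organ, leaving 2 residual degrees of freedom. The test of whether stress differed by breed added 1 term for both organs. Benjamini-Hochberg adjustment covered every gene of a contrast, with 0.05 as threshold. edgeR 4.0.16 (quasi-likelihood) and DESeq2 1.42.0 were run on recovered reads as alternatives. The scripts were tested on simulated data. Pairs of libraries were compared without a test, as log2 ratios of FPKM + 1 and of scaled reads with 95% Clopper-Pearson intervals. PCR duplicates are not marked, so intervals cover counting error only. "Measured" in a list means a mean FPKM of at least 1 in the libraries compared.

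The members and lists were chosen with earlier results of these data known. All members are named, as are at most 4 genes per list and comparison with the largest ratio, and the 8 genes most like the members. Exceptions are MC2R, MRAP and the marker and airway genes. No sequences are shown.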

Additional observations from a re-analysis of the deposited data

Results flagged for a closer look

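Of the stress ratios, 8 differences between breeds or organs were picked out because the stress ratio was on opposite sides of 0 in the groups compared. Between breeds, the counting intervals on reads of both ratios also had to lie off 0, and between organs both breeds had to fall on the same side within each organ. FOSB met neither condition. In the pituitary, the log2 stress ratio in the Chinese Field Dog minus that in the Beagle was 4.21 for DUSP2, 2.67 for NR4A1, 2.45 for NR4A2, 1.45 for ATF3 and 0.85 for JUNB, each lower with stress in the Beagle and higher in the Chinese Field Dog. These gaps within 1 organ rest on 4 libraries and were not tested. Over both organs together, the gap was 2.27 for DUSP2, 1.76 for NR4A1, 1.24 for NR4A2, 1.18 for ATF3 and 0.63 for JUNB, each with a limma adjusted p of 0.867. In the adrenal cortex the gap was -1.12 for EGR1 and -0.78 for FOS, both higher with stress in the Beagle and lower in the Chinese Field Dog. Over both organs it was -0.12 for EGR1 (limma adjusted p = 0.980) and -0.40 for FOS (limma adjusted p = 0.867). GADD45G was higher with stress in both adrenal pairs and lower in both pituitary pairs, and the difference between organs, as a mean over breeds, was -1.59 (SE 0.89, limma adjusted p = 0.933). The Beagle pituitary ratio of -2.58 makes up most of it, the Chinese Field Dog pituitary ratio being -0.12.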

How the results depend on the processing

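Each result was recomputed with a pseudocount of 0.1 or 5, without the filter on low values, with at least 50 reads required, with median-of-ratios scaling, with edgeR and DESeq2, with other model terms and without each library. All replicate numbers are 1 and pair nothing, but the organs can be paired by breed and exposure: with each such pair as a block, an alternative chosen after seeing the data, limma called 7 members between the organs, the 6 and NR4A2 (log2 -1.04, adjusted p = 0.0406). That fit called 8686 of all 14808 genes, against 8231 in the main fit. The count of members called between the organs was 3 to 7 when 1 library was left out: 3 without any adrenal cortex library and 7 without any pituitary library, fits that take their spread from the complete organ alone. Over all 14808 genes the calls were 3760 or 4173 without an adrenal cortex library and 7053 or 7420 without a pituitary library. Without the stressed Beagle or the unexposed Chinese Field Dog pituitary, DUSP2 and GADD45G were called higher and EGR1 and ATF3 were not called. The count of members called was 5 without the filter (8885 of 19675 genes) and 7 by DESeq2 (7828 of 14808 genes). It was 6 under the settings that keep all libraries other than these and the block, which called 8111 to 8924 genes. Without both stressed pituitary libraries 8 members were called, and 5658 of all 14808 genes. The fitted organ difference ran from -0.25 to 1.85 for DUSP2 and from -0.38 to 0.85 for GADD45G when 1 library was left out. For breed and stress together DESeq2 called 1 member and 41 of all 14808 genes, and the fitted gap of FOSB was -0.0067 with a pseudocount of 5 against 0.16. The number of members past 2-fold in the stress pair of the Chinese Field Dog pituitary was 0, but 3 with a pseudocount of 0.1 and 4 by scaled reads, an alternative chosen after seeing the data. In the unexposed pituitary breed pair that number was 5, but 8 with a pseudocount of 0.1. The shares of all genes past 2-fold with a pseudocount of 0.1 or in scaled reads are not given here. Scaling factors between libraries moved no level by more than 0.03 on the log2 scale. Depth limits DUSP2 and ATF3 most, at 26 to 90 and 47 to 121 reads in their lowest libraries.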
